A study of Sus scrofa with 6 samples.

Results

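A set of 10 genes of the NF-κB system were examined in the abdominal aorta of Wuzhishan pigs: the subunits NFKB1, NFKB2, REL, RELA and RELB, the inhibitors NFKBIA and NFKBIE, the feedback enzyme TNFAIP3, the kinase IKBKB and the nuclear cofactor BCL3. They were taken by gene name, and each of the 10 matched 1 of the 30477 rows of the deposited expression table. RNA was sequenced from 3 male pigs kept on normal chow (NC1 to NC3) and from 3 male pigs given a diet high in fat, cholesterol and fructose (HFCF1 to HFCF3), in both cases for 6 months. The sample labels give an age of 3 to 4 months for all 6 pigs, while the methods of the study give an older age at purchase. Nothing else distinguishes the groups in the labels. Each library came from abdominal aorta tissue of mixed cell types, and the layers of the wall that were taken are not stated. Fewer cells of a type and less RNA per cell therefore cannot be told apart.

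NF-κB is a family of dimeric transcription factors that is held in the cytoplasm by inhibitory IκB proteins and released when an IκB kinase marks those inhibitors for destruction. RELA, REL and RELB carry the activation domains, whereas NFKB1 and NFKB2 encode precursors that are processed to the DNA-binding partners. Several genes of the system, NFKBIA and TNFAIP3 among them, are themselves switched on by NF-κB and close negative feedback loops. In the arterial wall the pathway is known for driving the expression of chemokines, cytokines and leukocyte adhesion molecules in endothelium, smooth muscle and macrophages.

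The deposited values are FPKM, fragments per unit of exon length and of sequencing yield. The absolute depth of the libraries is unknown, but the steps between low FPKM values placed the other libraries at 1.03 to 1.37 times the depth of NC1. These depths are rough. For HFCF1 to HFCF3 they rest on 34, 30 and 38 genes, of 1404, 1277 and 1350 genes low in both libraries. Values were compared as log2(FPKM + 0.1) with limma over the 15384 genes with a mean of at least 0.1 FPKM, and a gene was called at a Benjamini-Hochberg adjusted p under 0.05. By this rule 28.9% of all tested genes were called, 22.8% higher and 6.16% lower in the HFCF group, and the median log2 fold change of all genes was 0.32. Under 3 other scalings it was -0.0027 (median-ratio), -0.07 (quantile) and 0.09 (TPM). The share of calls that were higher in the HFCF group was 78.7% with the deposited values and 50.8%, 49.5% and 59.3% after these 3 scalings. The smooth muscle genes that define the tissue were abundant in all 6 pigs.

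Most of the core NF-κB genes differed little in mean mRNA level between the diets in the deposited values, a description that depended on the scaling. Of the 10 genes, REL rose 3.42-fold and NFKBIA fell to 0.55 of its NC level, and the other 8 were not called. The fraction called, 1 of 10 higher and 1 of 10 lower, stands beside 22.8% and 6.16% of all tested genes. For 8 of the 10 genes the log2 fold change lay within 0.35 of 0, as it did for 31.5% of all tested genes. Under the 3 other scalings this held for only 3 (median-ratio), 5 (quantile) and 4 (TPM) of the 10 genes, beside 32.9%, 34.0% and 31.1% of all tested genes. The median log2 fold change of the 10 genes was -0.08, and 9 of them lay below the median of all genes, with REL as the exception. By the thresholds of the study, a ratio of group means above 2 or below 0.5 with an unadjusted p under 0.05, REL alone was a differentially expressed gene, where 25.5% of all tested genes were, 20.7% above 2 and 4.82% below 0.5. A fold change on the log2(FPKM + 0.1) scale understates the change of a gene as low as REL.

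**Figure D1:**
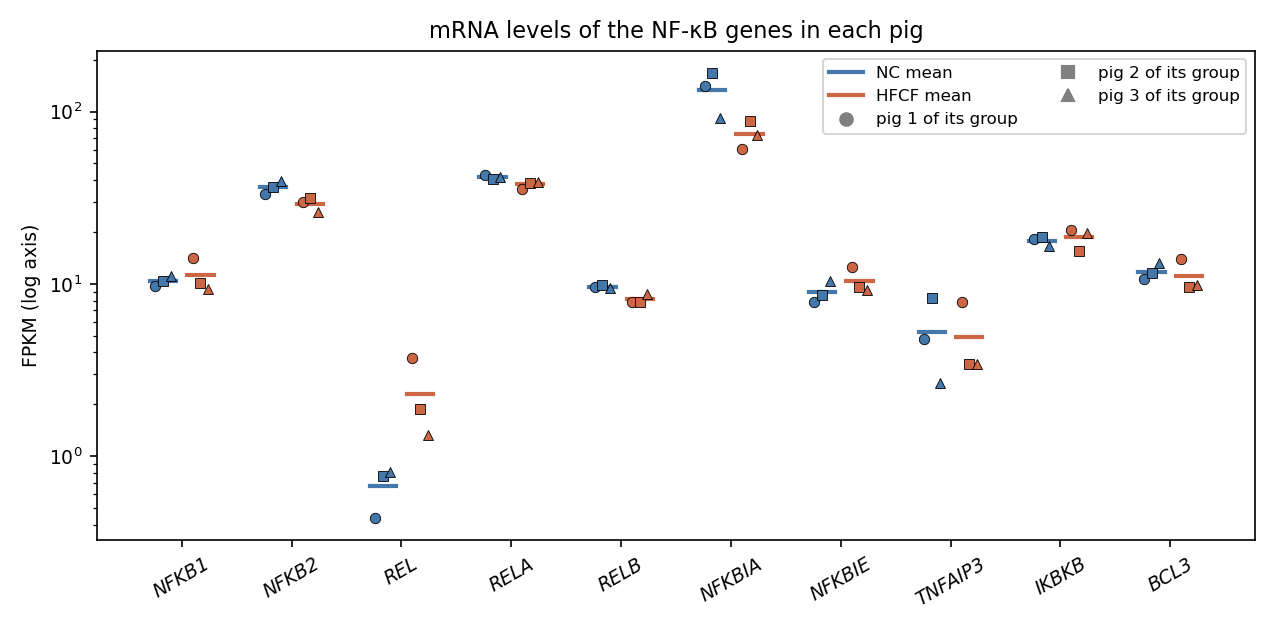
FPKM of the 10 genes (log axis) in each pig, NC in blue and HFCF in orange, with the marker shape giving the number of the pig within its group and bars the group means. REL was between 0.44 and 0.81 FPKM in the NC pigs and between 1.33 and 3.69 FPKM in the HFCF pigs, the 3 HFCF values of NFKBIA lay below all NC values, and the group means of the other genes lay closer together.

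Among the subunits, REL was the least abundant and moved the most. REL (ENSSSCG00000008388) encodes c-Rel, a subunit best known from lymphocytes and myeloid cells. It was 0.44, 0.77 and 0.81 FPKM in NC1 to NC3 and 3.69, 1.87 and 1.33 FPKM in HFCF1 to HFCF3. The lowest HFCF value lay above the highest NC value, and HFCF1 stood well above the other HFCF pigs. The group means were 0.67 ± 0.20 and 2.30 ± 1.24 FPKM (SD, n = 3 each), and the log2 fold change was 1.55 with a 95% interval from 0.56 to 2.54 (adjusted p = 0.0323, limma). The direction held in all 15 alternatives, between 0.92 and 1.86, but the call held in 5 of them, with adjusted p (limma) from 0.0291 to 0.130. It was lost without NC1 (adjusted p = 0.108), NC2 (0.0705), NC3 (0.0580), HFCF1 (0.0673) or HFCF2 (0.0724) and kept without HFCF3 in limma. It was also lost with each of the 3 scalings, with adjusted p (limma) of 0.0623, 0.121 and 0.0562.

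RELA (ENSSSCG00000012981) encodes p65, the main transactivating subunit of the canonical pathway. It was 42.6, 40.4 and 42.0 FPKM in NC1 to NC3 and 35.6, 38.7 and 39.0 FPKM in HFCF1 to HFCF3. The groups did not overlap, but the step between them was small. The log2 fold change was -0.14 with a 95% interval from -0.43 to 0.14 (adjusted p = 0.412, limma).

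RELB and NFKB2 encode the pair that carries the alternative pathway, RELB directly and NFKB2 through its processed product. RELB (ENSSSCG00000038879) was 9.64, 9.86 and 9.44 FPKM in the NC pigs and 7.89, 7.82 and 8.69 FPKM in the HFCF pigs. Its log2 fold change was -0.24, with a 95% interval from -0.57 to 0.08 (adjusted p = 0.223, limma). NFKB2 (ENSSSCG00000010580) was 33.1, 36.6 and 39.8 FPKM in the NC pigs and 29.8, 31.7 and 26.1 FPKM in the HFCF pigs. Its log2 fold change was -0.32, with a 95% interval from -0.66 to 0.02 (adjusted p = 0.136, limma). In both genes every HFCF pig was below every NC pig.

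RELA, RELB, NFKB2 and NFKBIA were the 4 genes of the 10 whose HFCF values all lay below the NC values, a pattern shown by 12.1% of all tested genes. In either direction 48.2% of all tested genes did not overlap. REL was the only one whose HFCF values all lay above, as in 36.1% of all tested genes. Median-ratio scaling, which takes out the general upward shift of the HFCF libraries, left the direction of RELA, RELB and NFKB2 unchanged and brought all 3 past the threshold, with log2 fold changes of -0.50, -0.60 and -0.68. Rescaling to TPM called RELB and NFKB2, and quantile normalization called RELB. More genes were called lower in general under these scalings. Of the 15384 tested genes, 1969 were called lower after median-ratio scaling, 1527 after rescaling to TPM and 1782 after quantile normalization. With the deposited values 948 were. The calls for these 3 subunits thus depended on the scaling.

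NFKB1 (ENSSSCG00000030957), whose product is the precursor of p50 and the usual partner of p65, was 9.72, 10.4 and 11.1 FPKM in the NC pigs and 14.2, 10.17 and 9.31 FPKM in the HFCF pigs. HFCF1 was the highest of the 6 pigs and the other HFCF pigs fell within or below the NC range. The log2 fold change was 0.08 with a 95% interval from -0.37 to 0.54 (adjusted p = 0.775, limma), and its sign turned with each of the 3 scalings and without HFCF1.

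**Figure D2:**
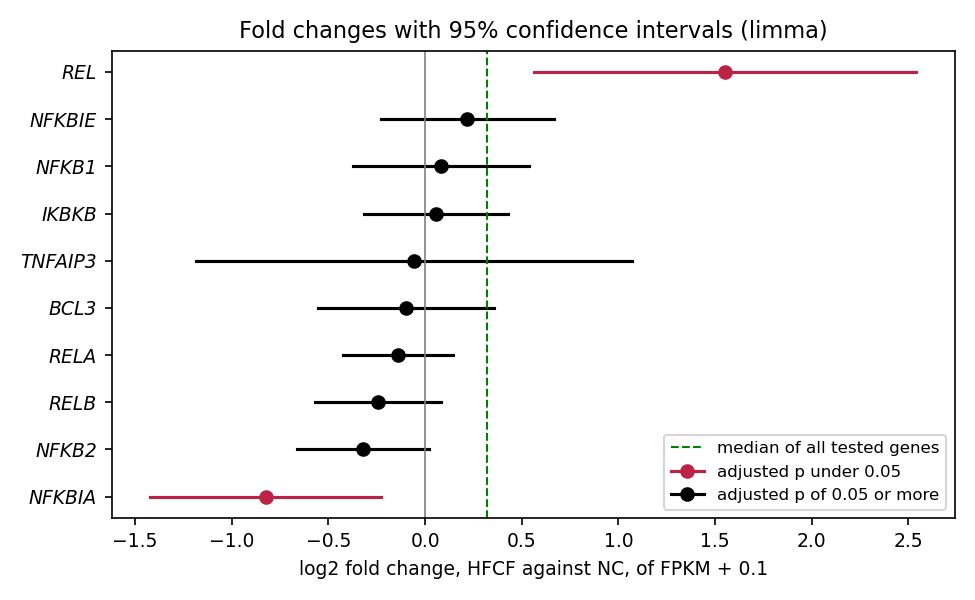
Log2 fold change of each gene (HFCF against NC, FPKM + 0.1) with its 95% confidence interval from limma, and the median of all tested genes as a dashed line at 0.32. The intervals of REL and NFKBIA exclude 0, and the interval of TNFAIP3, from -1.18 to 1.07, is the widest of the 10.

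The make-up of the subunit pool was compared as shares within each pig, which do not depend on a factor common to a whole library. FPKM is a value per length, so levels of different genes can be added. The summed FPKM of the 5 subunits was 95.4, 98.0 and 103 FPKM in NC1 to NC3 and 91.2, 90.2 and 84.4 FPKM in HFCF1 to HFCF3. The groups did not overlap (exact two-sided permutation test, p = 0.1, the smallest that 3 pigs against 3 can give). Unlike the shares, this sum moves with the scaling of a library, and it was not compared under the other scalings. RELA made up 42.2% ± 2.12 (SD, n = 3) of that sum in the NC group and 42.7% ± 3.58 (SD, n = 3) in the HFCF group. NFKB2 held 36.8% ± 2.001 and 32.9% ± 2.14, and RELB held 9.77% ± 0.53 and 9.21% ± 0.94 (SD, n = 3 each). The shares of these 3 subunits overlapped between the groups.

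REL took 0.46%, 0.78% and 0.78% of the subunit sum in NC1 to NC3 and 4.05%, 2.08% and 1.58% of it in HFCF1 to HFCF3. NFKB1 took 10.19%, 10.6% and 10.8% in NC1 to NC3 and 15.5%, 11.3% and 11.03% in HFCF1 to HFCF3. Neither share overlapped between the groups, and each had an exact permutation p of 0.1 and an adjusted p of 0.25 over the 5 subunits. Without HFCF1 the difference between the group means went from 1.89 to 1.15 percentage points for REL and from 2.07 to 0.61 for NFKB1. Even in HFCF1, where its share was highest, REL remained the smallest component of the pool.

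**Figure D3:**
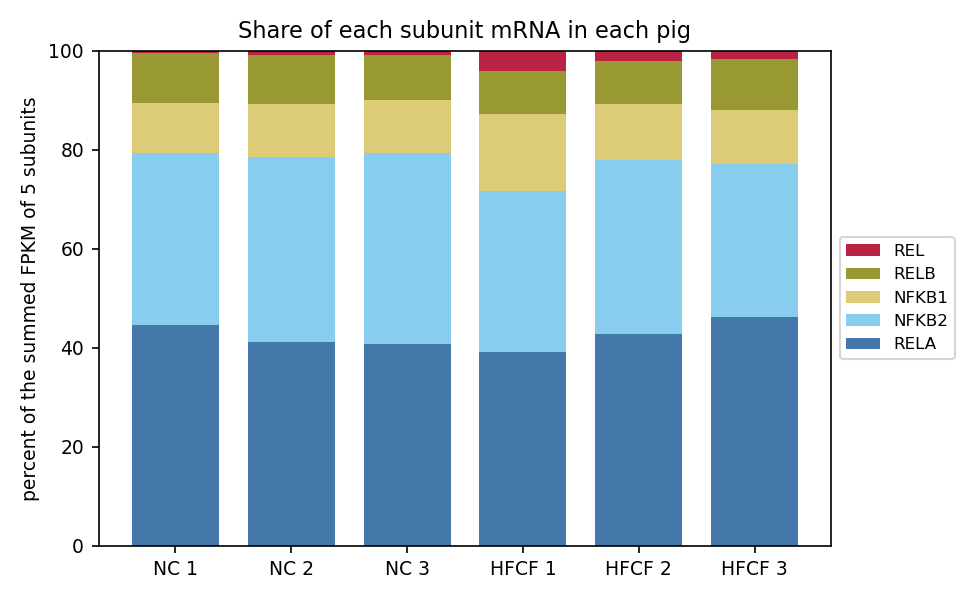
Share of each subunit mRNA in the summed FPKM of the 5 subunits, in percent, for each pig. RELA and NFKB2 form most of every bar, and the REL segment at the top grows from 0.46% to 0.78% in the NC pigs to between 1.58% and 4.05% in the HFCF pigs.

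Ratios between pairs of the genes were taken within each pig and tested over 8 pairs, with adjusted p-values from 0.2 upwards in the exact permutation test. The log2 ratio of REL to RELA was -5.80 ± 0.44 in the NC group and -4.10 ± 0.79 in the HFCF group (SD, n = 3 each; exact permutation p = 0.1, adjusted p = 0.2). That of NFKB2 to NFKB1 was 1.79 ± 0.04 and 1.39 ± 0.29, and that of BCL3 to NFKB1 was 0.17 ± 0.06 and -0.01 ± 0.08 (SD, n = 3 each). That of RELB to RELA was -2.10 ± 0.06 and -2.20 ± 0.08 (SD, n = 3 each). The groups did not overlap in these 4 ratios, which is unequal change and does not show which member of a pair changed. The share of gene pairs in general that do not overlap was not computed. Of single genes, 48.2% of all tested did not overlap, so the count is not read as a trait of these genes. The remaining 4 ratios, among them NFKBIA to RELA at 1.64 ± 0.47 and 0.95 ± 0.21 (SD, n = 3 each), overlapped.

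Among the inhibitors, the most abundant gene of the 10 fell, while the related NFKBIE was not called. NFKBIA (ENSSSCG00000001952) encodes IκBα, the inhibitor that is degraded and then resynthesised when the canonical pathway is triggered. It was 141, 167 and 92.0 FPKM in NC1 to NC3 and 60.6, 87.9 and 73.3 FPKM in HFCF1 to HFCF3. All HFCF values were below all NC values, although HFCF2 and NC3 lay close together. The means were 133 ± 38.3 and 73.9 ± 13.7 FPKM (SD, n = 3 each), and the log2 fold change was -0.83 with a 95% interval from -1.42 to -0.23 (adjusted p = 0.0482, limma).

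The direction of NFKBIA held in all 15 alternatives, between -1.18 and -0.64, and the call held in 6 of them, including the 3 scalings. Its adjusted p (limma) ranged from 0.0190 to 0.178. In limma the call was lost without NC1 (adjusted p = 0.148), NC2 (0.132), HFCF1 (0.125), HFCF2 (0.0646) or HFCF3 (0.1001) and kept without NC3. A pseudocount of 1 also ended it (adjusted p = 0.0516, limma).

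NFKBIE (ENSSSCG00000001703), which encodes the related inhibitor IκBε, was 7.82, 8.65 and 10.3 FPKM in the NC pigs and 12.6, 9.59 and 9.17 FPKM in the HFCF pigs. The groups overlapped. The log2 fold change was 0.22 with a 95% interval from -0.23 to 0.67 (adjusted p = 0.420, limma), and its sign turned with each of the 3 scalings. The log2 ratio of NFKBIE to NFKBIA was -3.85 ± 0.62 in the NC group and -2.81 ± 0.49 in the HFCF group (SD, n = 3 each; exact permutation p = 0.2, adjusted p = 0.267), and the groups overlapped.

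BCL3 (ENSSSCG00000027426) encodes an atypical IκB protein that acts in the nucleus with dimers of the processed subunits. It was 10.7, 11.5 and 13.2 FPKM in the NC pigs and 13.9, 9.63 and 9.82 FPKM in the HFCF pigs. HFCF1 was above all NC pigs and the other HFCF pigs were below them. The log2 fold change was -0.10 with a 95% interval from -0.55 to 0.36 (adjusted p = 0.735, limma).

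TNFAIP3 (ENSSSCG00000004154) encodes A20, a ubiquitin-editing enzyme that shuts down signalling upstream of the IκB kinase. It was 4.78, 8.22 and 2.65 FPKM in NC1 to NC3 and 7.83, 3.42 and 3.44 FPKM in HFCF1 to HFCF3. It varied 3.11-fold within the NC group and 2.29-fold within the HFCF group, and the groups overlapped throughout. The log2 fold change was -0.06 with a 95% interval from -1.18 to 1.07 (adjusted p = 0.938, limma). Its sign turned without NC2, HFCF2 or HFCF3.

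The 9 endothelial markers examined as a list, none of which was called, had a summed level of 226, 254 and 141 FPKM in NC1 to NC3 and 294, 181 and 118 FPKM in HFCF1 to HFCF3. The 3 pigs with the highest endothelial sum, HFCF1, NC2 and NC1, were also the 3 with the highest TNFAIP3. The sum of the 7 adipocyte markers was highest in the same 3 pigs, at 317 (NC2), 210 (NC1) and 104.6 FPKM (HFCF1). HFCF3 followed closely at 103.8 FPKM, and the sum was lowest in NC3 (51.3 FPKM), as was TNFAIP3. The part of endothelial or adipocyte content in the spread of TNFAIP3 was not tested.

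IKBKB (ENSSSCG00000007030) encodes IKKβ, the catalytic subunit that phosphorylates the IκB proteins. It was 18.3, 18.6 and 16.5 FPKM in the NC pigs and 20.5, 15.5 and 19.8 FPKM in the HFCF pigs. The groups overlapped, and the log2 fold change was 0.05 with a 95% interval from -0.32 to 0.43 (adjusted p = 0.819, limma). Its sign turned with each of the 3 scalings and without HFCF1.

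The order of the levels was much the same on both diets. NFKBIA was highest, followed by RELA, NFKB2 and IKBKB, and each of these 4 was separated from the next by values that did not overlap among the 3 pigs of either group. Below them BCL3, NFKB1, RELB and NFKBIE lay between 8.14 and 11.8 FPKM on average, and most neighbours among these overlapped. TNFAIP3 and REL came last in both groups. Their values were separated in the NC group and overlapped in the HFCF group, where the REL value of HFCF1 was above the TNFAIP3 values of HFCF2 and HFCF3.

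HFCF1 was the highest of the 3 HFCF pigs in 6 of the 10 genes, namely REL, NFKB1, NFKBIE, TNFAIP3, IKBKB and BCL3, and the lowest in RELA and NFKBIA. The same pig had the highest level of all 6 in 14 of the 15 macrophage markers. The 15 markers summed to between 115 and 125 FPKM in the NC pigs and to 2875, 1193 and 1107 FPKM in HFCF1 to HFCF3. All 15 rose, with a median log2 fold change of 3.96, and none was at 0 in any pig. CD68, a lysosomal membrane protein of macrophages, rose from 4.48 ± 1.06 to 158 ± 89.9 FPKM (SD, n = 3 each; adjusted p = 0.000646, limma).

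Other cell type lists moved less uniformly. Of 10 contractile smooth muscle markers 7 fell, and their sum was 16076 to 22885 FPKM in the NC pigs and 8084 to 12986 FPKM in the HFCF pigs. Of 9 T cell markers 2 rose, CD2 and CD8A (called in 12 and 3 of 14 alternatives), with sums of 2.23 to 2.75 and 4.09 to 21.2 FPKM. Of 7 tested B and plasma cell markers 1 rose, CD79A, while MS4A1 was listed at 0 in every pig but HFCF1, with sums of 8.57 to 14.1 and 36.5 to 57.7 FPKM. Of 3 tested neutrophil markers 1 rose, CSF3R, with sums of 0.99 to 1.51 and 5.52 to 68.1 FPKM. Of 9 fibroblast markers LUM rose, with sums of 3714 to 6865 and 3758 to 6825 FPKM. Of 7 adipocyte markers PLIN4 fell (called in 8 of 15 alternatives), with sums of 51.3 to 317 and 76.8 to 104.6 FPKM. HFCF1, where REL was highest and NFKBIA lowest, had the highest macrophage, T cell, B and plasma cell, neutrophil and endothelial sums and the lowest smooth muscle sum of the 6 pigs. The part of cell content in either result was not tested.

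The genes whose pattern over the 6 pigs lay nearest to a member were found by the root-mean-square difference of their log2 values, each taken from its own NC mean, among 10074 named genes with a mean of at least 1 FPKM. For REL these were SLC38A9, at a difference of 0.12, and NAV3, at 0.17. SLC38A9, a lysosomal amino acid sensor, was 0.37, 0.60 and 0.73 FPKM in the NC pigs and 2.76, 1.43 and 1.15 FPKM in the HFCF pigs. For NFKBIA they were GAREM1, at 0.12, and GLUL, the glutamine synthetase, at 0.14. For RELA they were ATP6V1E1 (0.03) and VAC14 (0.04), for RELB SSRP1 (0.03) and EFTUD2 (0.04), and for NFKB2 TXNL4B and TELO2 (0.06 each). For NFKB1 they were BPTF (0.04) and HGS (0.06), for NFKBIE PPP1R9B (0.03) and ARPC5L (0.05), for BCL3 PCSK5 (0.04) and TSPAN14 (0.05), for IKBKB COG3 (0.04) and IGFBP4 (0.07), and for TNFAIP3 CBR2 (0.11) and LDB2 (0.12).

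The wider pathway was described through 4 further lists. Among other inhibitors and IκB-like proteins, 4 of 14 tested genes rose and none fell, with a median log2 fold change of 0.48. NFKBIZ, which encodes the atypical nuclear inhibitor IκBζ, was 9.53, 14.2 and 11.99 FPKM in the NC pigs and 47.1, 26.6 and 34.7 FPKM in the HFCF pigs. Every HFCF pig was far above every NC pig, and the rise of 1.58 on the log2 scale (SE 0.25, adjusted p = 0.00545 in limma) kept its call in all 15 alternatives. NFKBID (log2 fold change 0.83), TNIP2 (0.80) and RNF11 (0.46) also rose, and kept their calls in 10, 8 and 5 of the 15 alternatives. NFKBID encodes another nuclear IκB protein, and TNIP2 a partner of A20.

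The list of kinases upstream of NF-κB held 19 genes, with the adaptors TAB1, TAB2 and TAB3 and the scaffold gene IKBKG among them. Of these 19 genes, 6 rose and 1 fell, with a median log2 fold change of 0.58. No part of the IκB kinase complex was called. Beside IKBKB, the log2 fold change of CHUK, which encodes IKKα, was 0.59 (95% interval -0.04 to 1.22, adjusted p = 0.140, limma), and IKBKG, which encodes the scaffold NEMO, was at -0.02 (95% interval -0.48 to 0.44, adjusted p = 0.940, limma). MAP3K14, the kinase that starts the alternative pathway, was at -0.15 (adjusted p = 0.581, limma), and TBK1 0.82 (adjusted p = 0.366, limma) from levels of 0.10 to 1.23 FPKM. Without NC1, its lowest library, the value for TBK1 was 0.11.

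IKBKE, an inducible relative of the IκB kinases, was 0.48, 0.70 and 1.88 FPKM in the NC pigs and 7.19, 4.42 and 3.18 FPKM in the HFCF pigs. IRAK2, a kinase of the toll-like and interleukin-1 receptor complexes, was 2.19, 1.85 and 2.55 FPKM in the NC pigs and 14.6, 9.11 and 9.93 FPKM in the HFCF pigs. IRAK2 rose by 2.28 on the log2 scale (adjusted p = 0.00159 in limma) and was called in all 15 alternatives, while IKBKE was called in 10. TAB3 (1.74) and PRKCB (1.52) rose as well, and were called in 9 and 4 of the alternatives. MAP3K3, the 1 kinase that fell and named here after its value was seen, had a log2 fold change of -0.60. It was called in 7 of the 15 alternatives, and the call was lost, among others, without NC1, NC2, NC3, HFCF2 or HFCF3.

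Of the 27 receptors and adaptors with a tested row, 8 rose and none fell, with a median log2 fold change of 0.54. The pattern receptors TLR8 (4.35), TLR1 (2.95) and TLR4 (2.93) had the largest rises. TLR8 was 0.033, 0.030 and 0.053 FPKM in the NC pigs and 4.35, 2.19 and 2.09 FPKM in the HFCF pigs. Its NC values lay below the filter of 0.1 FPKM, so it was tested only through its HFCF values. The fold change of TLR8 depends on the pseudocount and lay between 1.85 and 5.84 over 15 alternatives. With a pseudocount of 1 it was 1.85, below the 2.04 of TLR4. TLR1 shares much of its sequence with TLR6, and FPKM does not show how common reads were divided. These 3 receptors were called in all 15 alternatives. The receptors for tumour necrosis factor were not called, with log2 fold changes of -0.03 for TNFRSF1A and 0.61 for TNFRSF1B, both named after their values were seen.

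Genes that NF-κB is known to switch on were a mixed group. Of 35 tested target genes 11 rose, 1 fell and 23 were not called, and the median log2 fold change was 0.87. The largest rises were those of the protease MMP9 (log2 fold change 5.21), the B cell survival factor TNFSF13B (4.39) and the chemokines CCL5 (3.99) and CXCL10 (3.31). CCL5 was 2.10, 0.99 and 2.82 FPKM in the NC pigs and 84.1, 18.9 and 17.5 FPKM in the HFCF pigs, with HFCF1 again far above the rest. MMP9 was 0.13, 0 and 0.41 FPKM in the NC pigs and 31.1, 8.38 and 2.17 FPKM in the HFCF pigs. Its fold change therefore depends on the pseudocount and lay between 3.07 and 6.62 over 15 alternatives. That of TNFSF13B, from an NC mean of 0.16 FPKM, lay between 2.40 and 5.16.

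The targets included lower and uncalled genes as well. The following were named after their values were seen. GADD45B, a stress-induced gene, fell from 141 ± 58.5 to 46.5 ± 8.44 FPKM (SD, n = 3 each; adjusted p = 0.0205, limma). It was called in 10 of the 15 alternatives and was not called without a filter or without NC1, NC2, HFCF1 or HFCF2. ICAM1, the adhesion molecule, was 27.8, 29.8 and 24.5 FPKM in the NC pigs and 29.0, 34.1 and 17.8 FPKM in the HFCF pigs, which overlapped (log2 fold change -0.07, adjusted p = 0.858 in limma). The log2 fold changes of IL6 and CXCL2 were -0.53 and -0.36, with adjusted p (limma) of 0.371 and 0.585 and overlapping groups. VCAM1 had 0.94 and TNF had 1.52, with adjusted p (limma) of 0.0652 and 0.103.

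**Figure D4:**
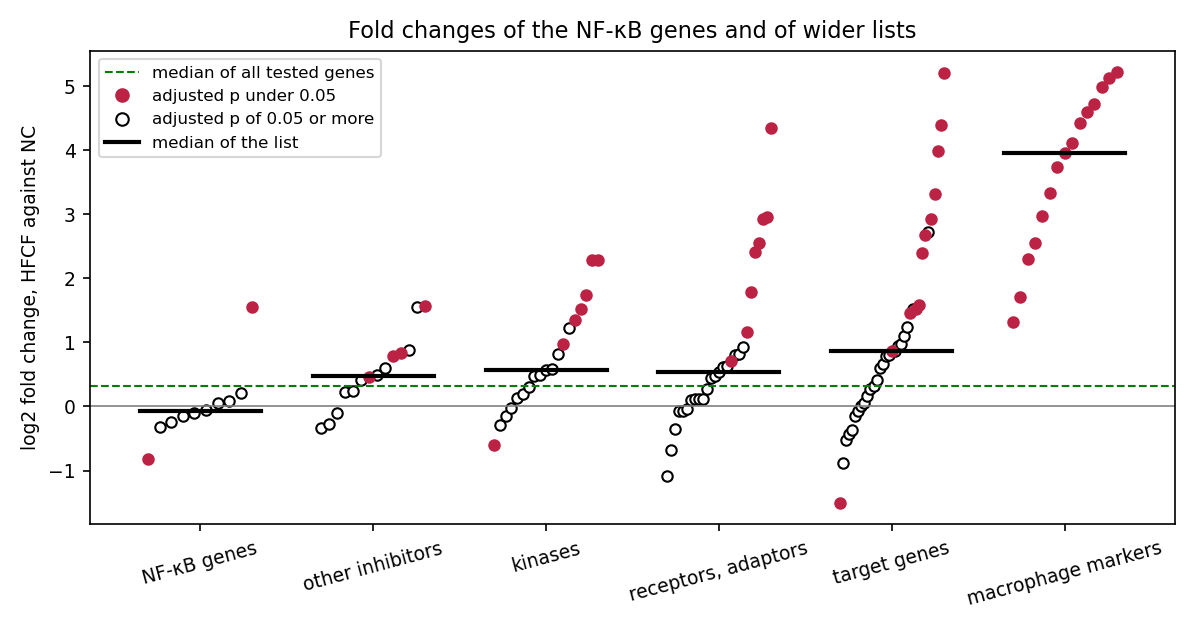
Log2 fold change (HFCF against NC) of each tested gene in the 10 NF-κB genes, the 4 wider lists and the macrophage markers, with filled points for an adjusted p under 0.05, bars for list medians and the median of all tested genes as a dashed line. The list medians were -0.08, 0.48, 0.58, 0.54, 0.87 and 3.96 from left to right.

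The share of genes called higher was 28.6% of the other inhibitors, 31.6% of the kinase list, 29.6% of the receptors and adaptors and 31.4% of the targets. It was 22.8% of all tested genes. Among the 10 core genes it was 10%. These shares rest on few genes and on the deposited scaling. After quantile normalization, 1 of 14 other inhibitors and 2 of 19 genes of the kinase list were called higher. So were 7 of 27 receptors and adaptors, 8 of 35 targets, 0 of the 10 core genes and 1748 of all 15384 tested genes. The number of calls among the targets ranged from 5 to 15 over the 15 alternatives, and among the core genes from 0 to 4.

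**Figure D5:**
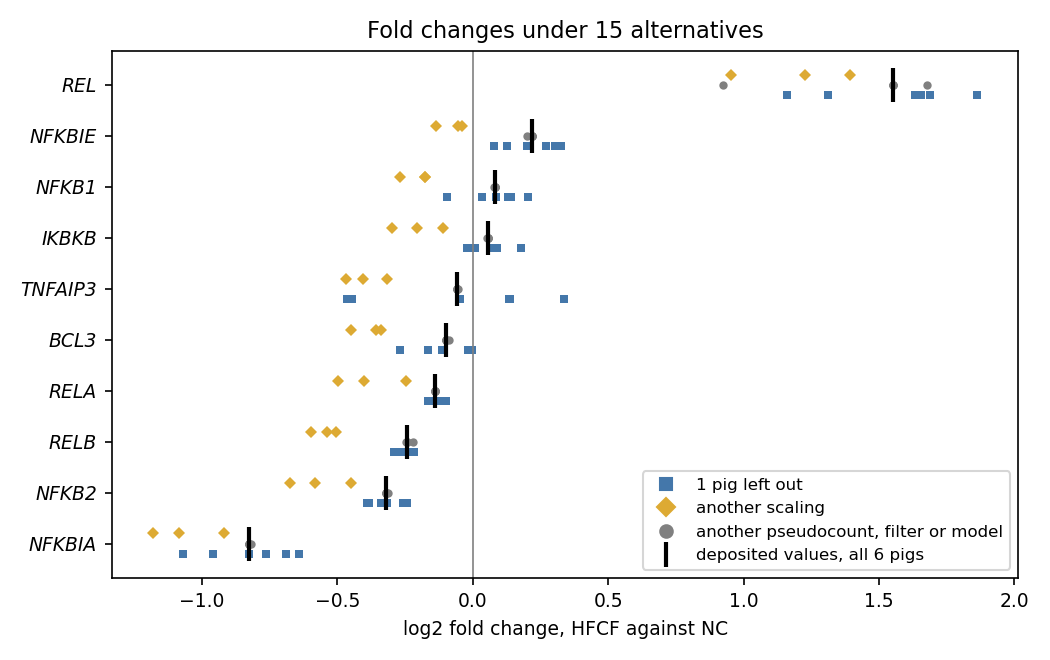
Log2 fold change of each of the 10 genes under the 15 alternatives (squares for 1 pig left out, diamonds for another scaling, circles for another pseudocount, filter or model), with a bar for the deposited values of all 6 pigs. REL stayed between 0.92 and 1.86 and NFKBIA between -1.18 and -0.64, while the points of NFKB1, NFKBIE, IKBKB and TNFAIP3 fell on both sides of 0.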

How the data were processed

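Abdominal aorta RNA of 3 NC and 3 HFCF pigs was compared, and each pig gave 1 library. The authors trimmed reads with cutadapt 1.9, checked them with FastQC and aligned them with HISAT2, per the submitters' processing notes, and quantified them with StringTie, per the methods. The FPKM values were used as deposited, with 0.0001 read as 0. The methods name an earlier genome build than the reference table, so no coordinates are given, and no sequences were used here. These FPKM are not counts, so no count model was fitted. The model was limma 3.58.1 in R 4.3.3 on log2(FPKM + 0.1), with diet as the only factor, a trended variance prior, and p-values adjusted by Benjamini-Hochberg across the 15384 genes with a mean of at least 0.1 FPKM. The count of 15 alternatives covers pseudocounts, filters, scalings, variance model, replicate block and each pig left out. Shares and ratios within a pig were compared with exact permutation tests in scipy 1.17.1. The code was tested on simulated data.

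The members and all lists were chosen with earlier results of these data known. All 10 members are named, and of each wider list the 4 largest changes among called genes, with CHUK, IKBKG, IKBKE, TBK1 and MAP3K14 regardless of value, and the 2 genes nearest to each member in pattern. Of the genes this rule names, 1 is not reported here. List genes without a symbol in the table were named through the Ensembl IDs of a reference table in 5 cases. TRAF2, TRAF3, IL1B, SELE and 10 other list genes had no row under their symbol and are not analysed here.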

Additional observations from a re-analysis of the deposited data

How the results depend on the processing

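The precision of every value rests on 3 pigs per group. The limma p-values combine the spread between these pigs with a variance prior taken from all tested genes. Without the filter, which changes that prior, the SE of RELA went from 0.12 to 0.05 and that of RELB from 0.14 to 0.05. Neither gene was called in that setting (adjusted p of 0.190 and 0.0638, limma). Both called genes lay close to the threshold. The number of the 10 genes called was 2 with the deposited values, 1 with a pseudocount of 1 or without a variance trend, 0 without a filter or with the replicate block, 4 after median-ratio scaling, and 0 to 1 with each pig left out. Over all 15384 tested genes 4453 were called, against 4240 with a pseudocount of 1 and 4131 without a variance trend. The count was 4004 after median-ratio scaling, 2772 with the replicate block and 2399 to 3562 with a pig left out. Without a filter it was 2516 of 30477 genes. REL was called neither without a filter (log2 fold change 1.55), nor with the block (1.55), nor under the median-ratio (1.23), quantile (0.95) and TPM (1.39) scalings, and lay between 1.16 and 1.86 with a pig left out. NFKBIA was not called with a pseudocount of 1 (-0.82), without a filter, without a trend or with the block (-0.83 each), and lay between -1.07 and -0.64 with a pig left out. Calls appeared after median-ratio scaling for NFKB2 (-0.68), RELA (-0.50) and RELB (-0.60), after rescaling to TPM for NFKB2 (-0.58) and RELB (-0.51), and after quantile normalization for RELB (-0.54).

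Signs turned under those 3 scalings, in that order, for NFKB1 (-0.27, -0.18 and -0.18), NFKBIE (-0.13, -0.056 and -0.040) and IKBKB (-0.30, -0.11 and -0.21). With a pig left out, the log2 fold change lay between -0.10 and 0.20 for NFKB1, -0.021 and 0.18 for IKBKB, -0.46 and 0.34 for TNFAIP3 and -0.19 and 0.16 for IKBKG, and the difference in the RELA share between -1.20 and 2.37 percentage points. The study's thresholds took 2 genes, REL and NFKBIA, after median-ratio scaling or rescaling to TPM and 1 to 2 with a pig left out. The other inhibitors had 4 calls, against 2 after median-ratio scaling or rescaling to TPM, 1 after quantile normalization, 2 with the block and 1 to 5 with a pig left out. The kinase list had 7 calls, against 3 without a filter or with the block and 4 after quantile normalization. It had 2 to 5 with a pig left out. The targets had 12, against 5 without a filter. Some settings had fewer pigs or more genes. What caused the counts to differ between settings was not tested. In the labels, same-numbered pigs share only a number. Their deviations from the group means correlated at 0.02, -0.08 and -0.07, and no pig correlated best with its own number. Deviations from a group mean balance out within the group, so these correlations cannot show whether pigs were paired. Whether the block is the better model was not tested.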
